A study of Rattus norvegicus with 8 samples.

Results

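The 36 genes listed here encode nuclear receptors, and 34 of them had at least 1 probe set that the array annotation assigns to that gene alone. These 34 genes held 61 of the 31042 probe sets on the arrays other than the manufacturer's control sets. Hnf4g and Nr6a1 had no such probe set and were not analysed here. Members were found by gene symbol, from a list drawn up with earlier results of these data known. Of the 61 probe sets, 36 from 26 genes were bright enough to be tested, and 25 were dim, meaning that they lay in the lower 50% of all probe sets by mean log2 signal. Genes with dim probe sets only were Esr1, Esrrb, Nr2c2, Nr2f1, Nr4a1, Nr4a3, Thra and Vdr.

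The livers came from male rats aged 18 weeks of the Goto-Kakizaki strain, which becomes diabetic without obesity. All 8 rats ate the purified AIN-93G diet, and for 12 weeks 4 of them received it with persimmon peel extract added and 4 without. Both groups are of this diabetic strain, and no rat of another strain was analysed here. Each liver was measured on 1 Affymetrix array. On this chip a probe set is a group of short probes for 1 or more transcripts, read together as 1 value. That value is a fluorescence signal in arbitrary units. Each set binds its target differently, so a brighter set does not show a higher transcript level, and "dim" and "bright" below describe the signal of a set alone.

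Nuclear receptors are transcription factors that bind short DNA elements, many of them as pairs with a retinoid X receptor, and most carry a pocket for a small lipid-like ligand such as a bile acid, an oxysterol, a fatty acid, a retinoid or a hormone. In the liver they set the expression of enzymes and transporters for bile acids, cholesterol, fatty acids, glucose and foreign compounds. Orphan receptors are members of the family without a settled natural ligand, and some, such as Nr0b2, lack a DNA-binding domain and act by binding other receptors.

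Array medians lay between 33.2 and 39.2 signal units, and pairs of arrays correlated at 0.967 to 0.986 over log2 signals of the tested sets. The ratio of the middle to the 3′ control set for beta-actin, which falls as RNA becomes shorter, was lower on the persimmon peel diet, with a mean log2 ratio of -1.06 ± 0.11 (SD, n = 4) against -0.76 ± 0.02 (SD, n = 4) in controls (p = 0.0286 by a two-sided exact permutation test, below which 4 against 4 arrays cannot go). The same ratio for GAPDH did not separate the diets, at -0.58 ± 0.03 (SD, n = 4) in controls and -0.59 ± 0.05 (SD, n = 4) in persimmon peel livers (p = 0.857 by the same exact permutation test). The ratios of the 5′ to the 3′ set differed by -0.28 for beta-actin and -0.14 for GAPDH (exact permutation p of 0.0286 and 0.0857). With the beta-actin middle ratio as a covariate no probe set on the arrays was called, as the closing section gives. In a whole liver sample, fewer cells of a type and less RNA per cell cannot be told apart. The 11 tested hepatocyte markers all had log2 fold changes below 0. Their summed signal was 104345 to 111264 in control livers and 95331 to 100152 in persimmon peel livers, with no overlap. All sums here are of deposited signals without further scaling, and how often sums of other bright genes do not overlap was not counted. The hepatocyte markers, and all marker and gene lists below, are read in the brightest tested set of each gene. In that set Tat alone of the hepatocyte markers passed the test. A dimmer set of Cps1, a urea cycle enzyme of hepatocytes, fell by 0.55 on the log2 scale (SE 0.08, limma adjusted p = 0.00224). Of 9 tested Kupffer cell markers, 8 had values above 0 and none passed in limma (0 at an unadjusted p under 0.05), and their summed signal overlapped at 6231 to 8138 against 6979 to 11322. Of 8 tested endothelial markers 5 lay below 0 and 3 above, and Fcgr2b fell by 0.42 on the log2 scale (limma adjusted p = 0.00900), with sums of 5181 to 5490 in controls and 4353 to 5536 in persimmon peel livers. Of 9 stellate cell markers 6 lay below 0 and 3 above and none passed in limma (0 at an unadjusted p under 0.05), with sums of 1158 to 1580 against 1081 to 1425. Cholangiocyte markers were mostly dim (Krt19, Krt7, Spp1, Cftr and Muc1), with sums of 246 to 343 against 270 to 291, and so were 8 of 10 lymphocyte markers, with sums of 342 to 408 against 307 to 453. No marker of any list was at 0 on any array. The part of these cell types in the receptor values was not tested.

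A single probe set among the 36 tested passed the test for a difference between the diets. It was 1 of 3 for Nr5a2, the liver receptor homolog that supports bile acid synthesis, and it fell on the persimmon peel diet by 0.94 on the log2 scale, with a standard error (SE) of 0.22 (limma, Benjamini-Hochberg adjusted p = 0.0276, n = 4 per diet). No receptor set was called higher. Over all 15521 tested probe sets, 4.53% were called lower and 0.425% higher, 4.95% in either direction, so 1 lower and 0 higher among 36 sets stands near that background. After quantile normalization 68.8% of all calls were lower, in place of 91.4%. At an unadjusted p under 0.05, 13 of the 36 sets from 10 genes passed, 9 lower and 4 higher, against 13.4% lower, 6.19% higher and 19.6% in either direction over all tested sets. The 4 controls and the 4 persimmon peel livers did not overlap for 5 sets, of which 4 were lower and 1 higher, against 10.0% and 2.87% of all tested sets, 12.9% together. The log2 fold changes of the 36 sets ran from -0.94 to 0.71 with a median of -0.019, beside a median of -0.0071 over all tested sets, and 20 lay below 0 and 16 above. With 1 set per gene, the brightest, 12 of 26 receptors lay below 0 and 14 above.

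**Figure D1:**
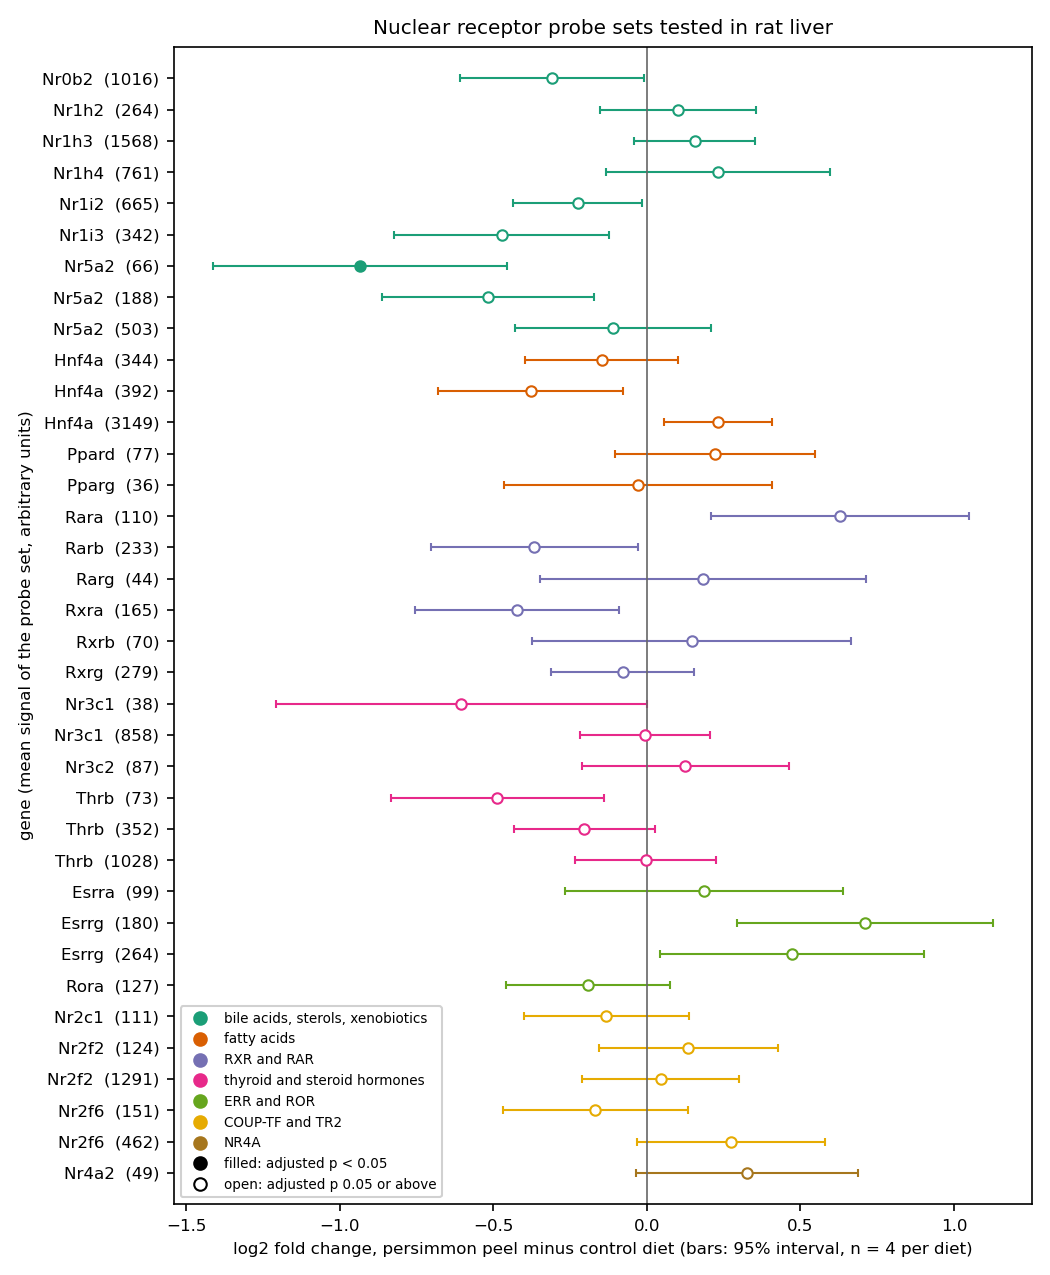
Log2 fold change (persimmon peel minus control diet) of each of the 36 tested nuclear receptor probe sets, with the 95% confidence interval as a bar and the mean signal of the set in brackets, coloured by the receptor's role. The dimmest Nr5a2 set, at -0.94, is the single filled point (adjusted p under 0.05), and the Esrrg set at 0.71 lies farthest to the right.

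The plot of fold changes shows that the intervals of 23 sets include 0. The median interval reached 0.32 on the log2 scale to either side, without adjustment for the number of sets tested. The Esrrg set farthest to the right had an unadjusted p of 0.00248 and just missed the adjusted threshold (limma). Calls used the adjusted p, so a typical receptor set needed a change well beyond 0.32. The middle Nr5a2 set, at -0.52 with a standard error of 0.16 beside a median of 0.15 over the receptor sets, was not called (limma adjusted p = 0.0811).

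The bile acid receptors come first. Nr5a2 binds DNA as a monomer and activates genes of bile acid synthesis, and Nr0b2, the small heterodimer partner, represses it. The RefSeq promoter of Nr5a2 (assembly GRCr8, chr13:50984889-50985188, minus strand, 250 bases before to 50 after the start site) is shown because its gene holds the one called set. Capitals mark the letters AGGTCA, the short element that most of these receptors share; both strands and overlapping matches were searched.

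Nr5a2: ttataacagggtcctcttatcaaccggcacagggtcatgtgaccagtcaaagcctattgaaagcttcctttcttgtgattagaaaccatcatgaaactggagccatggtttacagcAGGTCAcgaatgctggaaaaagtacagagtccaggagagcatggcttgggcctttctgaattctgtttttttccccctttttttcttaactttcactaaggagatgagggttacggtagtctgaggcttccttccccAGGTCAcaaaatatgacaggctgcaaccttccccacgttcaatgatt

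This window holds 2 matches, and 16.2% of all 33469 promoter windows hold at least 1. Among the receptors, Esrrg and Rarg also had a window with AGGTCA. The longer monomer site TCAAGGTCA was in 0.433% of all windows and in 0 of the receptors' windows. A match is a string of letters in this window and was not measured as a binding site.

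The called Nr5a2 set, the dimmest of the 3, read 79.1, 77.5, 88.4 and 125.7 in control livers 1 to 4 and 75.7, 36.2, 42.9 and 43.4 in persimmon peel livers 1 to 4. All controls lay above all persimmon peel livers, although persimmon peel liver 1 lay just under the lowest control. The mean signal was 92.7 ± 22.5 (SD, n = 4) against 49.5 ± 17.7 (SD, n = 4), a fold of 0.523 with a 95% interval of 0.375 to 0.729.

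The second Nr5a2 set read 237.5, 190.0, 179.0 and 315.7 in controls and 157.1, 170.8, 136.0 and 166.4 in persimmon peel livers, again without overlap. Its log2 fold change was -0.52 (SE 0.16) and it missed the threshold (limma adjusted p = 0.0811). The third and brightest set ran from 440.2 to 688.5 in controls and from 411.0 to 566.8 in persimmon peel livers. The groups overlapped in part, with persimmon peel livers 1 and 3 below all controls and control liver 4 above all persimmon peel livers. The log2 fold change of this set was -0.11 (SE 0.15, limma adjusted p = 0.728). The 3 sets of this gene thus gave values of different size, a difference tested further below, and the position of each along the transcript was not analysed here. Control liver 4 was the highest control on all 3 sets. Without it the called set read -0.78 (limma adjusted p = 0.103) and the middle one -0.35, and the call was also lost without control liver 3, persimmon peel liver 3 or persimmon peel liver 4, at limma adjusted p of 0.0606, 0.0744 and 0.0628.

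Nr0b2 had 1 set, at 836.1, 1117.8, 1147.4 and 1530.1 in controls and 873.5, 878.2, 1023.8 and 884.2 in persimmon peel livers. The lowest value of all was control liver 1 and the highest control liver 4, so the groups overlapped. The log2 fold change of -0.31 (SE 0.14) had an unadjusted p under 0.05 alone (limma adjusted p = 0.237), and it was -0.17 without control liver 4. Nr1h4, the bile acid receptor FXR, ran from 516.8 to 792.9 in controls and from 586.4 to 1078.6 in persimmon peel livers, at 0.23 (SE 0.17, limma adjusted p = 0.485). The oxysterol receptors did not pass either. Nr1h3, or LXR-alpha, read 0.16 (SE 0.09, limma adjusted p = 0.373), and the bright set of Nr1h2, or LXR-beta, read 0.10 (SE 0.12, limma adjusted p = 0.684). The 95% interval of Nr1h3 ran from -0.04 to 0.35.

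Of the receptors for foreign compounds, Nr1i3 is CAR, which induces drug-metabolising enzymes. It read 337.4, 360.6, 346.6 and 624.4 in controls and 272.9, 283.8, 301.4 and 304.2 in persimmon peel livers. The groups did not overlap, and control liver 4 stood far above the other 3. The log2 fold change was -0.47 (SE 0.16) and missed the threshold (limma adjusted p = 0.116), and without control liver 4 it was -0.26.

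Nr1i2 is PXR, which responds to steroids, bile acids and drugs. It read 607.9, 727.4, 744.0 and 813.5 in controls and 589.2, 622.6, 632.0 and 618.2 in persimmon peel livers. Control liver 1 lay among the persimmon peel values, and the other 3 controls lay above them. Its log2 fold change was -0.23 (SE 0.10, limma adjusted p = 0.217). Vdr, the vitamin D receptor, was dim, with a mean signal of 10.5 and no array above 14.5, the highest signal of any of the 27 bacterial control sets, which target no rat gene.

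Among the receptors tied to fatty acids, Hnf4a, which holds many hepatocyte genes active, had 3 tested sets that differed in sign. The brightest read 2902, 2749, 3282 and 2725 in controls and 3218, 3285, 3878 and 3307 in persimmon peel livers. Control liver 3 lay within the persimmon peel range and the other controls below it. Its log2 fold change was 0.23 (SE 0.08, limma adjusted p = 0.127).

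The middle Hnf4a set read 407.2, 380.7, 509.4 and 506.6 in controls and 319.5, 385.4, 414.1 and 274.1 in persimmon peel livers, at -0.38 (SE 0.14, limma adjusted p = 0.144). Here controls 3 and 4 were high and persimmon peel livers 1 and 4 low, and the groups overlapped. The dimmest read 338.7, 334.6, 417.4 and 365.3 in controls and 288.7, 317.8, 389.8 and 320.8 in persimmon peel livers. Persimmon peel liver 3 and control liver 3 were each the highest of their diet, and the difference was -0.15 (SE 0.12, limma adjusted p = 0.515). Ppard, a fatty acid receptor found in most tissues, read 0.22 (SE 0.15, limma adjusted p = 0.449) in its tested set. Pparg, best known as the fat cell receptor, had a mean signal of 36.1, near the lower limit of testing at 34.4, and read -0.03 (SE 0.20, limma adjusted p = 0.955).

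**Figure D2:**
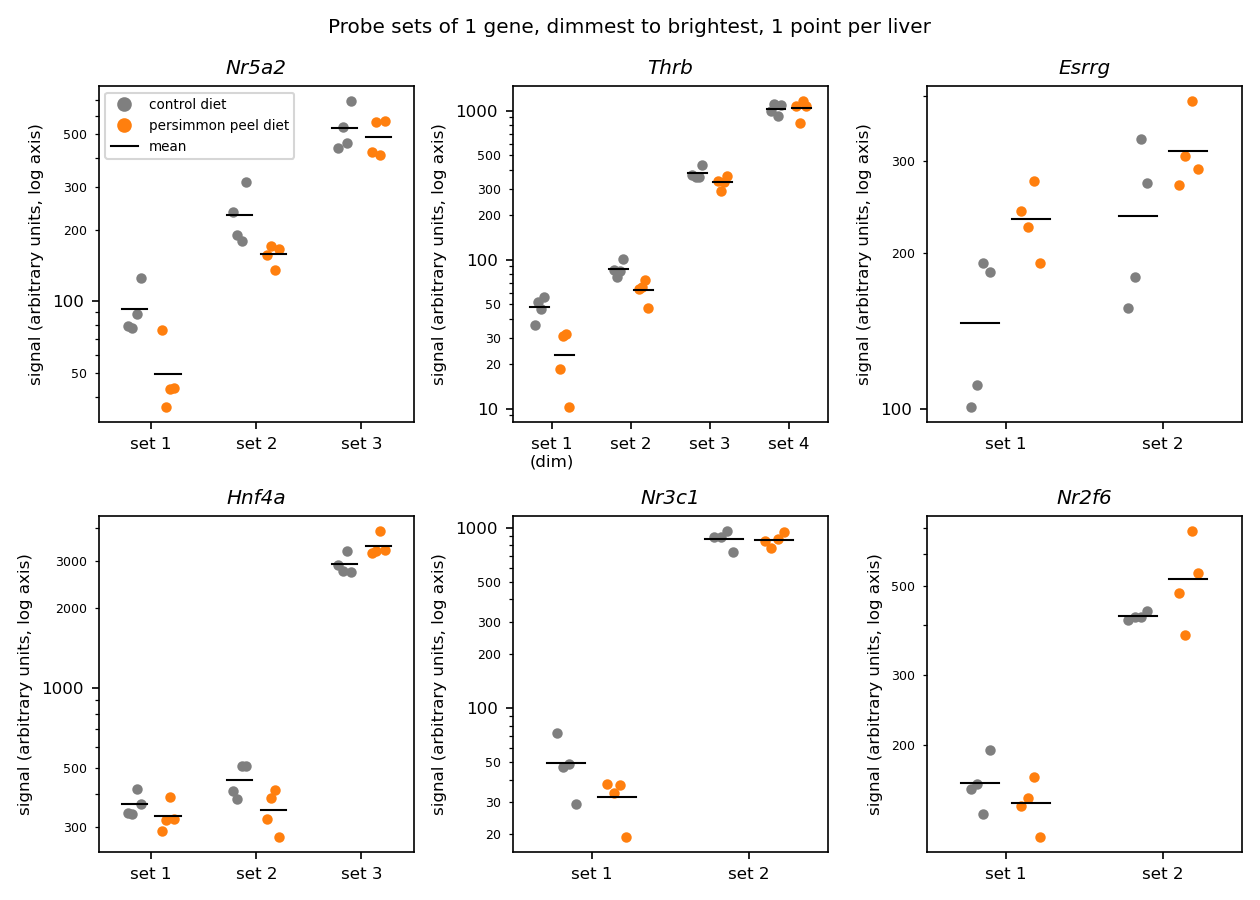
Signal of each liver (arbitrary units, log axis) for 6 receptor genes with several probe sets, ordered from the dimmest set to the brightest, with control livers in grey, persimmon peel livers in orange and a bar at each arithmetic mean. For Nr5a2 and Thrb the gap between the diets is widest in the dimmest set and closes in the brightest, and the brightest Hnf4a set is higher on the persimmon peel diet while its other sets are lower.

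The plot of probe sets within a gene also shows Nr3c1, whose dimmer set had a mean signal of 38.2, near the lower limit of testing at 34.4. Its mean was 49.5 in controls and 32.1 in persimmon peel livers, so only the control mean lay above that limit. As for Nr5a2 and Thrb, the dimmer set had the lower persimmon peel values. For the 7 receptors with several tested sets, the log2 signal of the dimmest set minus that of the brightest was therefore compared between the diets, a test chosen after these values were seen. Its change (persimmon peel minus control) was -0.83 for Nr5a2, -0.60 for Nr3c1, -0.48 for Thrb, -0.44 for Nr2f6 and -0.38 for Hnf4a, and 0.24 for Esrrg and 0.09 for Nr2f2. None of the 7 passed in limma, and 4 had an unadjusted p under 0.05 (adjusted p of 0.0692, 0.185, 0.102, 0.142 and 0.0532 for the 5 below 0). Without persimmon peel liver 1 Nr5a2 passed, and without persimmon peel liver 2 Thrb and Nr2f6 did. For Hnf4a the difference lay between -3.10 and -2.90 in controls and between -3.48 and -3.32 in persimmon peel livers, with no overlap. The share of all genes without overlap in this difference was not counted, so no excess for Hnf4a is shown. The change in this difference over all 2295 genes with several tested sets had a median of -0.15 and lay below 0 for 67.5% of genes. In limma 11.9% were called lower and 0.915% higher, and 25.9% were lower at an unadjusted p under 0.05. The median of the 7 receptors was -0.44. Dimmer sets thus stood lower against brighter ones in most genes on the persimmon peel arrays, where the beta-actin ratio was lower and the GAPDH middle ratio was not told apart, and the part of RNA length in this was not tested.

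The retinoid X receptors are the shared partners of many receptors named here. Rxra, the main hepatic form, read 178.9, 165.5, 188.7 and 237.1 in controls and 155.7, 151.0, 165.6 and 105.4 in persimmon peel livers. The groups met at control liver 2 and persimmon peel liver 3, and control liver 4 and persimmon peel liver 4 were the extremes. Its log2 fold change was -0.42 (SE 0.16, limma adjusted p = 0.141), and -0.28 without persimmon peel liver 4. Rxrb read 0.15 (SE 0.24, limma adjusted p = 0.784) and the tested Rxrg set -0.08 (SE 0.11, limma adjusted p = 0.732).

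Retinoic acid receptors bind vitamin A acid, and Rara and Rarb had opposite signs. Rara read 78.3, 65.2, 108.3 and 109.6 in controls and 146.6, 108.6, 185.8 and 116.7 in persimmon peel livers. Controls 1 and 2 were low, controls 3 and 4 met persimmon peel liver 2, and persimmon peel liver 3 was the highest. The log2 fold change of 0.63 (SE 0.20), a fold of 1.54, did not pass (limma adjusted p = 0.0826), and it was 0.48 without persimmon peel liver 3.

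Rarb read 300.5, 261.2, 210.7 and 294.3 in controls and 224.1, 261.2, 156.5 and 191.8 in persimmon peel livers. Values were mixed, with persimmon peel liver 2 level with control liver 2 and persimmon peel liver 3 lowest. The log2 fold change was -0.37 (SE 0.16, limma adjusted p = 0.208). Rarb is itself a textbook target of retinoic acid through an element in its own promoter, so the last 100 bases of its RefSeq window (GRCr8, chr15:11336342-11336441, plus strand), 50 before and 50 after the start site, are shown, with capitals for the letters GGTTCA and AGTTCA with any 5 bases between them.

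Rarb: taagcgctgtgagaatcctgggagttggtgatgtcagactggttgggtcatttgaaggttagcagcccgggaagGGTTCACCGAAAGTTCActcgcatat

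This direct repeat occurs in 3 of the 33469 windows on either strand. The tested set of Rarg read 0.18 (SE 0.25, limma adjusted p = 0.729). Of 4 tested retinoic acid targets none passed in limma (0 at an unadjusted p under 0.05), and the pair with the smallest p, Cyp26b1, which degrades retinoic acid, and Dhrs3, which reduces retinal, read -0.42 and 0.09 (limma adjusted p of 0.312 and 0.675).

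Among the hormone receptors, Thrb, the main thyroid hormone receptor of hepatocytes, had 4 sets. The dimmest tested set read 85.6, 75.9, 84.1 and 101.3 in controls and 63.3, 65.5, 72.8 and 47.4 in persimmon peel livers. The groups did not overlap, persimmon peel liver 4 was the lowest, and the log2 fold change was -0.49 (SE 0.16, limma adjusted p = 0.102). The 2 brighter sets read -0.20 (SE 0.11, limma adjusted p = 0.315) and -0.0035 (SE 0.11, limma adjusted p = 0.991), the last of which was 0.06 after quantile normalization.

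The remaining Thrb set, just under the filter, read 36.6, 52.3, 46.8 and 55.9 in controls and 18.6, 30.9, 31.8 and 10.3 in persimmon peel livers. These groups did not overlap either. In the fit without the filter its log2 fold change was -1.19 (SE 0.35, limma adjusted p = 0.127). Both Thrb sets that did not overlap are dimmer than those that did.

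Nr3c1, the glucocorticoid receptor, had a brighter set at 864.3 ± 90.6 (SD, n = 4) in controls and 858.1 ± 71.6 (SD, n = 4) in persimmon peel livers. The groups overlapped fully, and the log2 fold change of -0.0079 had a 95% interval of -0.22 to 0.20 and was 0.05 after quantile normalization. The dimmer Nr3c1 set read -0.60 (SE 0.28, limma adjusted p = 0.256), with an interval that reached 0. Nr3c2, the mineralocorticoid receptor, read 0.13 (SE 0.16, limma adjusted p = 0.706). Thra and Esr1, receptors of thyroid hormone and estrogen, were dim in all their sets.

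The estrogen-related receptors are orphans that raise genes of mitochondrial energy metabolism. Esrrg had the highest log2 fold change among the 36 tested sets. Its dimmer set read 100.9, 111.3, 190.6 and 183.4 in controls and 240.0, 224.2, 274.3 and 191.0 in persimmon peel livers. Every persimmon peel liver lay above every control, with controls 1 and 2 low and controls 3 and 4 just under persimmon peel liver 4. The mean was 146.6 ± 47.0 (SD, n = 4) against 232.4 ± 34.6 (SD, n = 4), a fold of 1.64 with a 95% interval of 1.23 to 2.18. The log2 fold change of 0.71 (SE 0.19) had a limma adjusted p of 0.05003, just short of the threshold of 0.05. It passed in 2 of the 8 fits that each left out 1 liver, those without control liver 3 or control liver 4 (limma adjusted p of 0.0301 and 0.0483). Without control liver 1 or control liver 2 it read 0.55 and 0.60 (limma adjusted p of 0.137 and 0.127).

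The brighter Esrrg set read 156.1, 179.3, 331.0 and 272.7 in controls and 270.0, 306.3, 390.9 and 289.8 in persimmon peel livers. Controls 1 and 2 were again low and controls 3 and 4 lay among the persimmon peel livers. Its log2 fold change was 0.47 (SE 0.20, limma adjusted p = 0.205), and 0.30 without control liver 1. Esrra read 0.19 (SE 0.21, limma adjusted p = 0.671), and the tested set of Rora, an orphan receptor that activates clock and lipid genes, -0.19 (SE 0.12, limma adjusted p = 0.420). Esrrb was dim.

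None of the remaining orphans passed, at the adjusted or the unadjusted p (limma). Nr2f6, a repressor of the COUP-TF family, had 2 tested sets of opposite sign. The brighter read 411.7, 417.4, 418.4 and 434.4 in controls and 479.9, 377.5, 684.5 and 537.8 in persimmon peel livers. Controls were tightly grouped, and persimmon peel liver 2 lay under all of them while the other 3 lay above. Its log2 fold change was 0.27 (SE 0.14, limma adjusted p = 0.308).

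The dimmer Nr2f6 set read 155.4, 160.5, 134.5 and 194.8 in controls and 140.8, 148.0, 166.6 and 118.0 in persimmon peel livers. The groups overlapped, and the log2 fold change was -0.17 (SE 0.14, limma adjusted p = 0.544). Nr2f2, or COUP-TFII, read 0.05 (SE 0.12, limma adjusted p = 0.873) in its brighter set and 0.13 in its dimmer tested one. Nr2c1, the testicular receptor TR2, read -0.13 (SE 0.13, limma adjusted p = 0.599). Nr4a2, an immediate early receptor that acts without a ligand, read 0.33 (SE 0.17, limma adjusted p = 0.305), with its relatives Nr4a1 and Nr4a3 dim.

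Of the 25 dim sets, 13 had a mean signal under the 14.5 units of the bacterial sets, 6 had no array above it, and 7 had all 8 arrays above it. Without the filter, 1.50% of all 31042 sets were called, and 0 of the 25 dim receptor sets were, with 2 at an unadjusted p under 0.05 (limma). These were the dim Thrb set and a dim Nr1h2 set that read 4.35, 5.2, 5.74 and 9.93 in controls and 15.7, 13.0, 16.6 and 7.0 in persimmon peel livers. The Nr1h2 values lie at the level of the bacterial sets, and the groups overlap through persimmon peel liver 4.

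**Figure D3:**
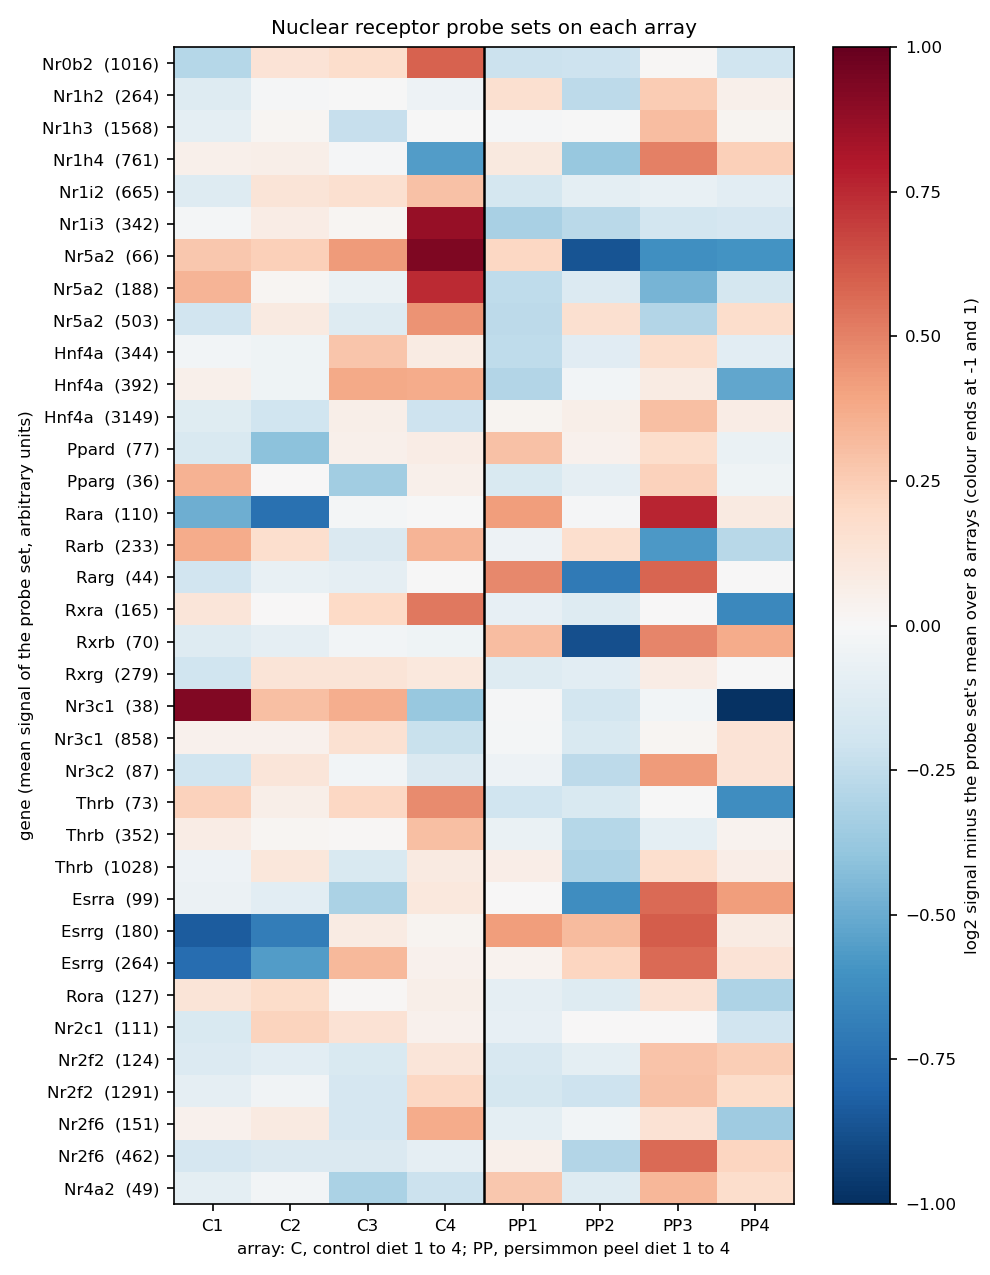
Log2 signal of each of the 36 tested receptor sets on each array, as the difference from the set's mean over the 8 arrays (red higher, blue lower, colours ending at -1 and 1), with control livers C1 to C4 on the left and persimmon peel livers PP1 to PP4 on the right. Both Esrrg sets are blue in C1 and C2, the Nr1i3 and Nr5a2 sets are reddest in C4, and PP3 is the reddest column of its diet.

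The map of signals by array shows which livers held the highest and lowest values within each diet. Persimmon peel liver 3 held the highest persimmon peel value in 27 of the 36 receptor sets, against 57.1% of all tested sets, and it also had the highest array median. Control liver 4 held the highest control value in 17 receptor sets, against 43.6% of all. Persimmon peel liver 2 held the lowest value of its diet in 14, against 36.6% of all. The counts of control liver 4 and persimmon peel liver 2 stand near the shares over all sets. Ranks within a diet do not show which liver makes a difference between the diets.

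Other nuclear receptors outside the list included Ppara, the fatty acid receptor that turns on fatty acid oxidation, which fell by 1.16 on the log2 scale (SE 0.21, limma adjusted p = 0.00658) and was called without any 1 of the 8 livers. The clock repressors Nr1d1 and Nr1d2 read 0.21 and -0.19 (limma adjusted p of 0.486 and 0.360) in their brightest sets. A dimmer set of Nr1d2 fell by 1.17 on the log2 scale (SE 0.21, limma adjusted p = 0.00670). Its mean was 73.6 in controls and 32.8 in persimmon peel livers, the latter under the lower limit of testing at 34.4. For receptor partners and targets, 1 set per gene was used, the brightest, and over all 9174 genes so taken 1.93% were called lower and 0.469% higher, with a median of 0.01. None of 12 coactivators passed in limma (0 at an unadjusted p under 0.05), among them Ppargc1b at 0.44 and Ppargc1a at -0.38 (limma adjusted p of 0.291 and 0.396), both of which boost mitochondrial genes. Of 7 corepressors none passed in limma in the brightest set (1 at an unadjusted p under 0.05), with Ncor1 at -0.37 and Gps2 at 0.32 (limma adjusted p of 0.0899 and 0.268). Of 7 chaperones of steroid receptors, Ptges3, the p23 co-chaperone of Hsp90, fell by 0.33 on the log2 scale (SE 0.08, limma adjusted p = 0.0251). That call was lost without control livers 1 or 4 or persimmon peel livers 1, 3 or 4 (limma adjusted p of 0.0522 to 0.0820). Ppid read -0.24 (limma adjusted p = 0.163).

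Of the target lists, that of FXR and Nr0b2 had 10 tested genes with none called in limma (2 at an unadjusted p under 0.05) and a median of -0.00065, with the bile acid importer Slc10a1 at -0.18 and Sdc1 at 0.31 (limma adjusted p of 0.157 and 0.151). The LXR list also had 10, with none called in limma in the brightest set (5 at an unadjusted p under 0.05) and a median of -0.09. Its leading genes were the lipogenic regulator Srebf1 at 0.34 and Lpcat3, which remodels phospholipids, at -0.26 (limma adjusted p of 0.0787 and 0.0857).

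In the CAR and PXR list, 11 of 13 genes lay below 0 and 1 was called, with a median of -0.14. Sult1a1, a sulfotransferase, fell by 0.24 on the log2 scale (limma adjusted p = 0.0326), a call lost without control livers 1, 2 or 4 or persimmon peel livers 1 or 4 (limma adjusted p of 0.0521 to 0.116), and the cytochrome Cyp3a18 read -0.54 (limma adjusted p = 0.0749). In the glucocorticoid list, 11 of 13 also lay below 0 with a median of -0.15. Tat, which breaks down tyrosine, fell by 0.54 on the log2 scale (limma adjusted p = 0.0101), and it was called without any 1 of the 8 livers. The Tat call was lost after quantile normalization, without an intensity trend and without persimmon peel livers 1 and 3 together (limma adjusted p of 0.0642, 0.0566 and 0.0612). Tsc22d3 read -0.41 (limma adjusted p = 0.0654). Tat is in the hepatocyte marker list as well, whose summed signal was lower in persimmon peel livers as given above.

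Of 7 thyroid hormone targets, Me1, the malic enzyme that supplies NADPH, fell by 0.48 on the log2 scale (limma adjusted p = 0.0400). The call was lost without control livers 1, 2 or 3 or persimmon peel livers 3 or 4 (limma adjusted p of 0.0794 to 0.109). Bcl3 read 0.23 (limma adjusted p = 0.385). Of 11 HNF4A targets, Otc, a urea cycle enzyme, fell by 0.30 on the log2 scale (limma adjusted p = 0.0246), and it was called in 2 of the 8 fits that each left out 1 liver, those without control liver 1 or persimmon peel liver 2. Apob read -0.17 (limma adjusted p = 0.104). All 6 tested targets of PPARG and PPARD lay below 0 and 1 passed: Cd36, a fatty acid transporter, fell by 0.90 on the log2 scale (limma adjusted p = 0.0156; 0.0520 without control liver 3 and 0.0551 without persimmon peel liver 1). Its mean was 65.7 in controls and 35.9 in persimmon peel livers, the latter near the lower limit of testing at 34.4. With a pseudocount of 16 it read -0.67 (limma adjusted p = 0.0134). The lipid droplet coat gene Plin2 read -0.18 (limma adjusted p = 0.258). Of 10 immediate early genes 9 lay above 0 and none passed in limma (1 at an unadjusted p under 0.05), with Egr1 at 0.61 and Jun at 0.23 (limma adjusted p of 0.141 and 0.339).

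Over the target lists together, 72 genes were tested, 5 were called lower, 0 were called higher in limma, and 53 lay below 0 with a median of -0.11. Outside the brightest set, 8 listed genes had a set called lower and none of the 8 had its brightest set called. Beside Cps1 and Nr1d2 these were the corepressor subunit Tbl1xr1, which fell by 0.73 on the log2 scale, and the chaperone Hsp90ab1, which fell by 0.66 (limma adjusted p of 0.0120 and 0.00658). The other 4 were targets. Cpt1a, which brings fatty acids into mitochondria, fell by 1.01 on the log2 scale, and the transporter Slco1a4 fell by 0.69 (limma adjusted p of 0.00217 and 0.00890). Pdk4, which holds back pyruvate oxidation, fell by 0.77 on the log2 scale, and the cholesterol exporter Abca1 fell by 0.56 (limma adjusted p of 0.0378 and 0.0212). Pdk4 was called in 2 of 8 fits that each left out 1 liver, those without control liver 4 or persimmon peel liver 2, and Abca1 in 4, being lost without control livers 1 or 4 or persimmon peel livers 1 or 4. The other 6 were called in all 8 such fits. The target lists were chosen with earlier results of the same arrays known, and their counts were not tested against those of other genes. The dimmer sets were looked up after the brightest ones had been seen. Over all 15521 tested sets 4.53% were called lower, against 1.93% of the brightest sets. The share among dimmer sets alone was not counted, so no excess among the 8 listed genes is shown.

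**Figure D4:**
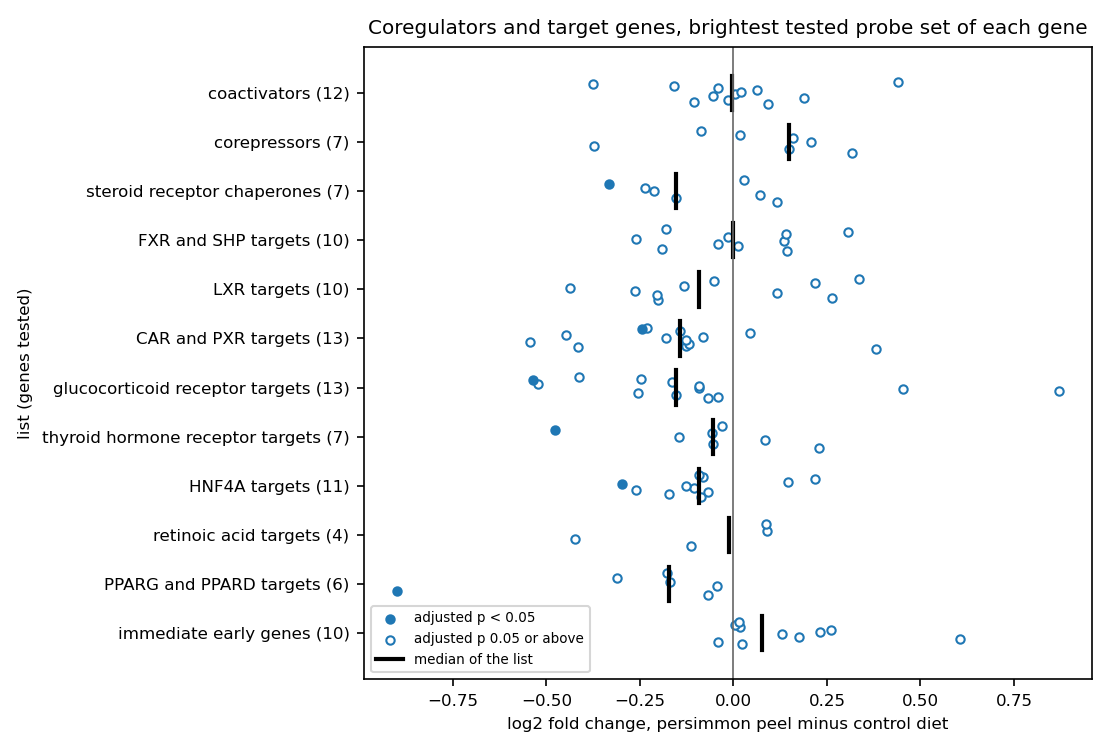
Log2 fold change (persimmon peel minus control diet) of the brightest tested probe set of each gene in 12 lists of receptor partners, targets and immediate early genes, with the number tested in brackets, filled points for an adjusted p under 0.05 and a bar at the list's median. All filled points lie left of 0, and the leftmost is Cd36 at -0.90.

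The plot of lists shows that 5 of the 8 target lists hold 1 gene called in its brightest set each, and 3 hold none.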

How the data were processed

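Liver RNA of 8 rats was measured on 1-colour arrays, 4 per diet. The deposited values are intensities on a linear scale, computed by the authors with MAS5 per the submitters' processing notes, which give no version. Its scaling target and any detection calls were not given in these sources, and low MAS5 signals vary strongly on the log scale. Groups came from the labels, each numbered liver was taken as 1 animal, and 0 columns were left over. Of 31042 probe sets, 20826 had 1 gene symbol, 436 had several, and 9780 none in the annotation used. Of the first, 20758 matched a RefSeq gene number.

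Values were taken to log2 without further scaling, since array medians spanned 0.24, below a limit of 0.5. The dimmest 50% of sets by mean log2 signal were left out, and 15521 were fitted with limma 3.58.1 in R 4.3.3 (lmFit, eBayes with intensity trend, two-sided, persimmon peel minus control), with calls at a p under 0.05 after Benjamini-Hochberg adjustment over all of them. The script was tested on simulated data. Fold changes, intervals and SEs come from that fit. Means and SDs are of linear signals. The precision is limited by the number of arrays.

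Receptors called, passing at an unadjusted p under 0.05, without overlap, or with sets that differed in sign by over 0.3 are given array by array. Of each gene list other than the cell type markers, the 2 genes with the smallest p and the called ones are named, from the brightest tested set. For the cell type markers summed signals are given, and only called genes are named with their values. The receptors, gene lists and alternatives were chosen with earlier results of these data known. The comparison of probe sets within a gene was added after seeing the data, with limma without a trend. Motifs were searched in RefSeq windows of assembly GRCr8, found for 30 of the receptors.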

Additional observations from a re-analysis of the deposited data

Results flagged for a closer look

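Of 72 groups of 4 livers (36 receptor sets in 2 diets), 7 held 1 liver far from the other 3 on the log2 scale by Dixon's 95% limit for the gap over the range. About 5% of groups would be so marked without any cause. Persimmon peel liver 3 was high for Nr0b2, at 1024 against 873.5 to 884.2 in the other 3, for Nr1h3, at 1938 against 1551 to 1595, and for the brightest Hnf4a set, at 3878 against 3218 to 3307. Persimmon peel liver 2 was low for Rxrb, at 37.9 against 86.4 to 98.1. Control liver 4 was high for Nr1i3, at 624.4 against 337.4 to 360.6, and low for Nr1h4, at 516.8 against 752.9 to 792.9. Control liver 1 was low for Rxrg, at 243 against 301 to 304.9.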

How the results depend on the processing

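Over 20 alternatives 22 of the 36 receptor sets kept the sign of their log2 fold change, and 14 changed it at least once, none of them called in either fit. The count of receptor sets called, 1, was 2 after quantile normalization, median centring, a pseudocount of 16 or array weights, and 0 without a filter, with only the upper 30% by signal, without an intensity trend, with the beta-actin ratio as a covariate, by a plain test per set, or with 1 set per gene. The dimmest Nr5a2 set was called in 10 of 18 alternatives, Esrrg in 7 of 19, Rara in 2 and the brighter Nr2f6 set in 1. That Nr5a2 set was too dim for the fit of the upper 30% by signal and was not the brightest of its gene. The fits with the upper 30% and with 1 set per gene did not hold it, so their counts of 0 do not test its call. Replicate numbers did not pair the livers (correlations of -0.08 to 0.05 within a number), and with the number as a replicate block 3 receptor sets were called. Leaving out 1 liver gave 0 to 3 receptor sets, 309 to 1209 of all sets (769 with every liver), and 4 to 11 listed genes (8 with every liver). In the difference between probe sets it gave 0 to 2 genes. The beta-actin difference stayed at -0.34 to -0.26 without 1 array, where 4 against 3 arrays cannot give an exact permutation p below 0.0571. All sets called numbered 467 without a filter, 76 without persimmon peel livers 1 and 3, 0 with the covariate, 3 by the plain test and 83 with 1 set per gene. Listed genes called numbered 4, 1, 0, 0 and 4 in these settings and 3 without an intensity trend. The beta-actin ratio does not overlap between the diets, so covariate and diet can hardly be told apart in that fit. The causes of the shifts were not tested.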

Other observations

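Control liver 4 was the lowest or highest control in several bile acid and xenobiotic receptors at once. It had the lowest Nr1h4 signal of the 8 livers (516.8) and the highest Nr0b2 (1530), Nr1i3 (624.4) and Nr1i2 (813.5), and the highest of all 3 Nr5a2 sets. Among all tested sets it also held the highest control value in 43.6%, and its array median of 37.4 was the highest of the controls. The oxysterol receptors differed, with Nr1h3 highest in control liver 2 and the tested Nr1h2 set highest in control liver 3. Esrrg split the controls the same way on both sets, with livers 1 and 2 at 100.9 and 111.3 on one and 156.1 and 179.3 on the other, and livers 3 and 4 at 190.6 and 183.4 and at 331.0 and 272.7. These splits were noticed in the data and were not tested.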
